A study of Mus musculus with 2 samples.

Results

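The glutathione, peroxidase and thioredoxin enzymes were taken as all probes of the array whose symbol begins with Gsta, Gstm, Gstp, Gstt, Gsto, Gstk, Gstz, Mgst, Gpx, Prdx or Txn, or is Gclc, Gclm, Gsr, Gss, Nqo1, Hmox1 or Srxn1. The rule found 98 probes of 62 genes among the 25697 probes of 17872 genes measured, and it used no measured value. No probe carried the symbols Gsr or Srxn1; Srxn1 was measured under an older array symbol and is described at the end, and Gsr was not analysed here. Under the prefixes Txn and Prdx the array also lists 10 genes by older names, which are given here by their current ones (Tmx1, Tmx4, Nme8, Erp44, Pdia6, Glrx3, Txnl4a, Txndc17, Nxnl1 and Prdx6b).

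The study measured RNA of mouse epidermis, separated with dispase from the back skin of C57BL6 pups at postnatal day 5, on 2 expression bead arrays. The array called CON held RNA of littermates with floxed alleles of both receptor genes, VDR fl/fl and CaSR fl/fl, without Cre. The array called DKO held RNA of mice with the same floxed alleles and a Cre recombinase driven by the keratin 14 (K14) promoter, which is active in basal keratinocytes and follicle epithelium, so that the vitamin D receptor and the calcium-sensing receptor were targeted there and not in other cells of the skin. Both groups shared the floxed alleles, and each RNA was combined from 3 mice and read on 1 array. There was therefore no replicate array, no spread between samples and no test between the groups. One line of the labels' protocol names a VDR knockout group where the sample titles name the double knockout, and the titles are followed here.

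Glutathione is a cysteine-containing tripeptide that cells use to reduce peroxides and to tag electrophiles for export. It is built by glutamate-cysteine ligase and glutathione synthetase. Glutathione peroxidases spend it on peroxides, and glutathione transferases couple it to reactive compounds. Peroxiredoxins and thioredoxins form a parallel system in which thioredoxin reductase returns the reducing power from NADPH. In epidermis these enzymes are known for handling oxidants from ultraviolet light, air and lipid metabolism, and many of their genes are known targets of the transcription factor NRF2.

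The promoters of 54 of the 62 genes were found in RefSeq (GRCm38.p6), as 71 windows of 300 bases that run from 250 bases before to 50 after an annotated start. Those of Mgst1, which has 2 annotated starts and probes that differed most, of Gpx2, which had the lowest difference, and of Gsto1, which was higher, are printed 5′ to 3′, with matches to the antioxidant response core TGACNNNGC or its variant TGAGNNNGC in capitals.
Mgst1 chr6:138140277-138140576 (+ strand): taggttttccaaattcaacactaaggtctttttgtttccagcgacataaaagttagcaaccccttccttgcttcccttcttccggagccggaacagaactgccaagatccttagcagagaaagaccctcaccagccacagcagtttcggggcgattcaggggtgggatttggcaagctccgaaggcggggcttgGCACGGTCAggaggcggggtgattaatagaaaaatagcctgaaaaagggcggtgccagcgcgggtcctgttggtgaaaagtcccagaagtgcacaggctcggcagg
Mgst1 chr6:138141337-138141636 (+ strand): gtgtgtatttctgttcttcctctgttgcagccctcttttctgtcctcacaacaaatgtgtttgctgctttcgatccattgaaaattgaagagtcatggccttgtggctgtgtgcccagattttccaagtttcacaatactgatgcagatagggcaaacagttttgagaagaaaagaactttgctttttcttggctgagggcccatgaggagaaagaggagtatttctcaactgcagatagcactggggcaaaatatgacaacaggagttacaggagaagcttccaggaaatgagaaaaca
Gpx2 chr12:76795505-76795804 (- strand): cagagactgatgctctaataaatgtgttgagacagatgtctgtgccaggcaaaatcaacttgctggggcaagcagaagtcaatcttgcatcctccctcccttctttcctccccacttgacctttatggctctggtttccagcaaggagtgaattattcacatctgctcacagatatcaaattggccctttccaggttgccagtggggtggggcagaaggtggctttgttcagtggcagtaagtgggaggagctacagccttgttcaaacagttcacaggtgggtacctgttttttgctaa
Gsto1 chr19:47854723-47855022 (+ strand): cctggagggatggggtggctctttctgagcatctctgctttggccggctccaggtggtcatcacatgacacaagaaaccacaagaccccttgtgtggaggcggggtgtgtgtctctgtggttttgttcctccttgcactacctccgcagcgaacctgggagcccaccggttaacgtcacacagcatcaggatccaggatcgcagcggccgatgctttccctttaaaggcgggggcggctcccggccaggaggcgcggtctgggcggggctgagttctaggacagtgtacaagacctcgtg
The first Mgst1 window held 1 match to TGACNNNGC, read on the opposite strand, whose first base lay 56 bases before the start. The second Mgst1 window and those of Gpx2 and Gsto1 held no match, nor did those of Nqo1 and Txn1. Searched on both strands, TGACNNNGC was found in 10 of the 71 member windows (14.1%) and in 4071 of 32851 windows of all genes (12.4%). TGAGNNNGC was found in 11 member windows (15.5%) and in 17.6% of all windows, and either core in 25.4% and 27.8%. These matches describe letters in the windows only.

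Each array's values are mean bead intensities on a linear scale, with a detection p-value against the negative-control beads. A probe was called detected where that detection p-value was under 0.01. The intensities were background-corrected, quantile-normalized and put on the log2 scale, and every difference below is the log2 value of DKO minus that of CON. Directions are those after normalization. For some small differences, such as that of Gstk1, the raw intensities go the other way. On the CON array 10760 probes (41.9%) were detected and on the DKO array 10441 (40.6%), at median intensities of 140.5 and 138. Each gene was followed by its main probe, the one with the highest mean log2 value. For member genes it was taken among the probes the rule found, and for all genes of the array among all their probes. In place of replicates, the pooled SD between the differences of detected probes of the same gene is given as a scale. It was 0.30 over 2047 genes and covers only the disagreement of probes, not that of animals or arrays. Among the targeted genes, Vdr was detected on both arrays by all 3 of its probes, with differences of -0.12, -0.24 and -0.82, and the single Casr probe was detected on neither array. The labels do not say whether these probes lie in the deleted parts of the genes, so they do not check the labels.

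Markers of the epidermis were present on both arrays. Of 8 keratinocyte markers on the array 7 were detected (Dsg1a was not), with a summed linear signal of 84872 on CON and 86942 on DKO. The 8 detected hair follicle markers, of 9 on the array (Krt25 was not detected), were all lower on DKO, with a summed signal of 29905 on CON and 10619 on DKO and a median difference of -1.39. Summed signals were 13058 and 12689 for 7 detected sebocyte markers, 3212 and 2435 for 4 melanocyte markers, 8076 and 9252 for 5 Langerhans cell markers and 1823 and 1603 for 5 T cell markers. Of 7 fibroblast markers 2 were detected, with a summed signal of 620 on CON and 488 on DKO. Col1a1, Col1a2, Col3a1, Lum and Pdgfra were not detected. Of the neutrophil, macrophage and mast cell markers 2 of 9 were detected, of the muscle markers 2 of 6, and of the adipocyte and endothelial markers 0 of 5 each. Of 6 erythroid markers 2 were detected, 1 higher and 1 lower on DKO, at summed signals of 827 on CON and 547 on DKO. By its 1 detected probe, the Y-linked gene Ddx3y was at 6.89 on CON and 10.31 on DKO, so the animals combined for the 2 arrays also differed in sex-linked transcripts. The part of hair follicle RNA or of the sexes of the animals in the differences below was not tested, and fewer cells of a type and less RNA per cell cannot be told apart.

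Most glutathione, peroxidase and thioredoxin genes differed little between the arrays. Of the 62 genes, 46 were detected on at least 1 array: 39 on both, 6 on CON only and 1, Gstm4, on DKO only. The 16 genes not detected were Gclc, Gpx3, Gpx5, Gpx6, Gstm3, Gsto2, Gstt1, Prdx6, Prdx6b, Erp44, Nme8, Nxnl1, Txndc17, Txndc2, Txndc8 and Txnl1. None of the 46 main probes passed 2-fold in either direction. Of the 8472 detected genes of the array, 1.05% passed it with a higher value on DKO and 1.39% with a lower one. At the looser size of 1.5-fold, 2 member genes were higher (Txn1 and Gsto1; 4.35%, against 6.09% of all genes) and 4 were lower (Gpx2, Gstt2, Nqo1 and Gsta4; 8.70%, against 7.37% of all genes). These shares lie near the background. Of the 4 lower genes, Gstt2 and Gsta4 were not detected on DKO, and with dim values set to the lowest detected value the count was 2. With uncorrected background, Gsto1 was the 1 member past 1.5-fold upward and Gpx2 the 1 past it downward. The median difference of the 46 genes was -0.04, beside -0.02 over all detected genes, and the median size of the difference regardless of sign was 0.23 for the members and 0.24 for all genes. Higher values were read for 20 members (43.5%) and lower values for 26 (56.5%), beside 47.1% and 52.6% of all detected genes.

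**Figure D1:**
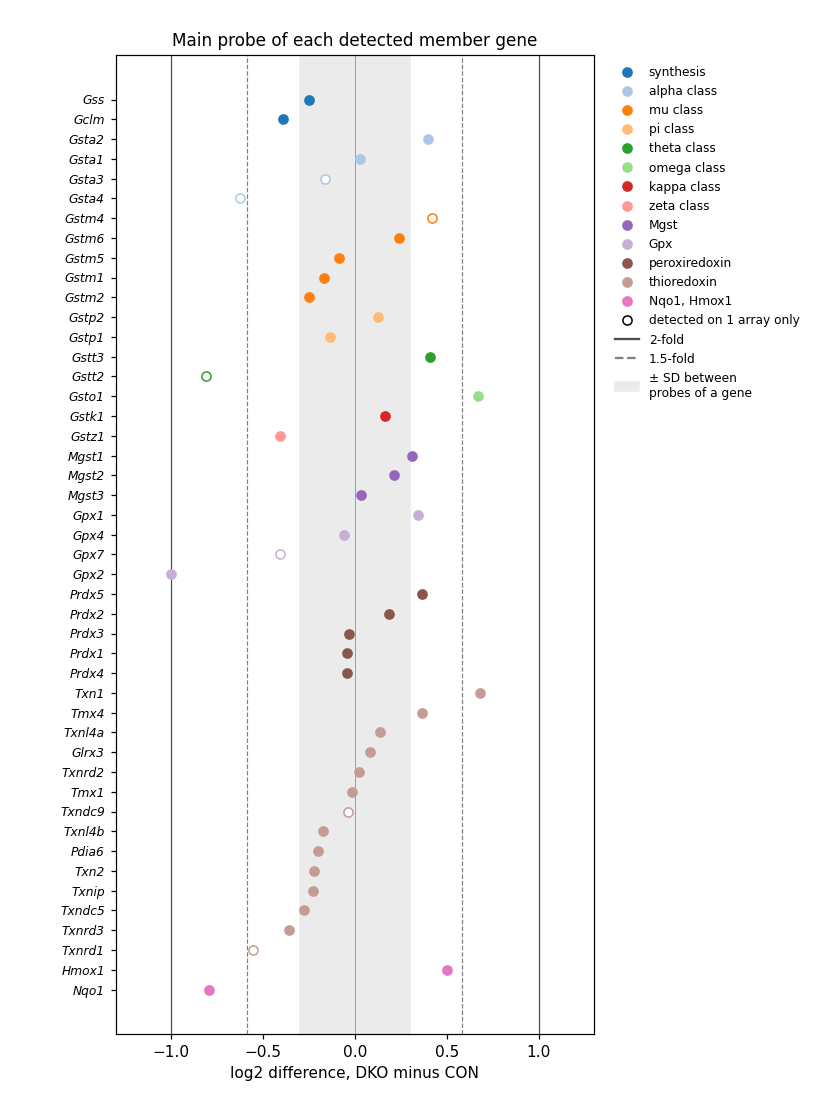
Log2 difference (DKO minus CON) of the main probe of each of the 46 detected member genes, grouped by role; filled points were detected on both arrays, open points on 1, and the grey band is the SD of 0.30 between probes of a gene. No point passes the 2-fold lines, Gpx2 reaches -0.999, and 40 of the 46 lie inside the 1.5-fold lines.

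**Figure D2:**
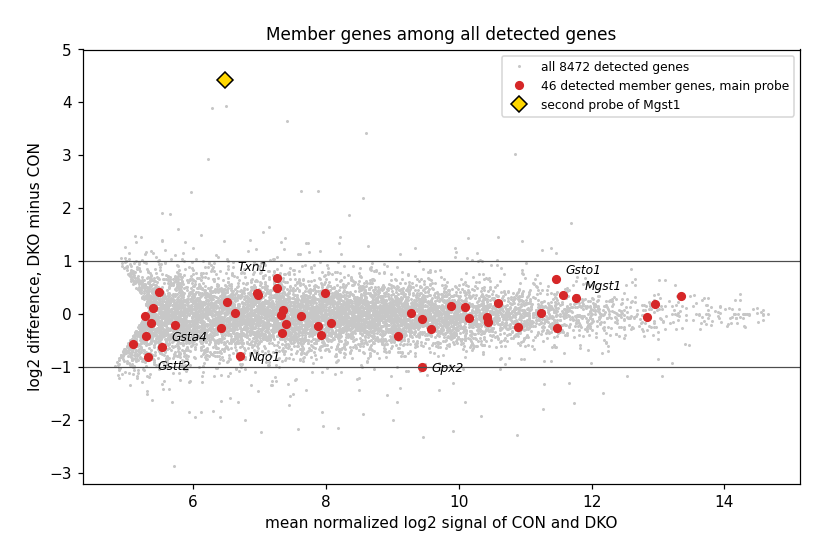
The detected member genes set among all 8472 detected genes by normalized log2 signal and log2 difference (DKO minus CON), each point being 1 gene's main probe. The members lie between -0.999 and 0.68 within the span of all genes, from -2.86 to 3.93, and their median is -0.04 against -0.02.

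Of the glutathione synthesis genes, Gclm, the modifier subunit of glutamate-cysteine ligase, had a raw intensity of 405.8 on CON and 310.2 on DKO, which is 8.11 and 7.73 after normalization and a difference of -0.39. The probe of Gclc, its catalytic subunit, was detected on neither array. Gss, glutathione synthetase, was read by 3 detected probes that disagreed. Its main probe gave 209.3 on CON and 185 on DKO and a difference of -0.25. The other two gave raw intensities of 187.9 and 151.3 with a difference of -0.79, and 169.3 and 173.2 with a difference of 0.25. So 2 of the 3 Gss probes were lower on DKO and 1 was higher, and no single direction can be given for the gene.

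The alpha class transferases, cytosolic enzymes that also reduce lipid hydroperoxides, were all detected. Gsta1 was level, with raw intensities of 772.2 and 692.7, normalized values of 9.26 and 9.29 and a difference of 0.03. Gsta4, known for coupling glutathione to the lipid peroxidation product hydroxynonenal, gave 172 on CON and 146.9 on DKO, where it was not well above background. Its fitted difference was -0.62, or -0.47 against the lowest detected value on DKO, and it was -0.18 with uncorrected background. Gsta2 differed by 0.40, and Gsta3, detected on CON only, by -0.16. Gsta1 and Gsta2 are close relatives, and the files do not say whether their probes tell them apart.

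Of the 6 mu class genes, 5 were detected, and their differences ran from -0.25 to 0.42. Gstm2 had 3 detected probes: the main probe read 3421 on CON and 2572.9 on DKO (difference -0.25), the next 2875.5 and 2283.6 (-0.17), and the last 1396.1 and 1298.1 (0.08). These 3 probes lie on both sides of 0 but within 1.5-fold of each other. Gstm1 differed by -0.17 and Gstm5 by -0.09. Both detected probes of Gstm6 were higher, by 0.24 and 0.47. Gstm4 was not well above background on CON and had a fitted difference of 0.42, with raw intensities of 151.6 on CON and 160.3 on DKO. Members of this class are similar in sequence, so reads of one by the probe of another cannot be told apart here.

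Of the pi class, Gstp1 was lower on both detected probes, which read 1657.1 and 1355.2 (difference -0.13) and 954.5 and 670 (-0.39). Its neighbour Gstp2 differed by 0.12. In the theta class, Gstt2 gave 167.1 on CON and 139.5 on DKO, where it was not well above background. Its fitted difference was -0.81, the lowest of the transferases, but it was -0.35 against the lowest detected value on DKO and -0.22 with uncorrected background. Gstt3 went the other way, with 225.3 on CON, 246 on DKO and a difference of 0.41. Both of the theta values come from dim probes.

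Gsto1, an omega class transferase known for reducing dehydroascorbate and for S-thiol exchange, was higher on DKO. Its raw intensity was 2475.4 on CON and 3456.8 on DKO, its normalized value 11.13 and 11.80, and its difference 0.67, which is 1.59-fold and rank 348 from the top among the 8472 genes. This is 1 probe, far above background on both arrays. The brighter probe of its relative Gsto2 had a detection p-value of 0.123 on CON and 0.0188 on DKO and was not counted as detected. Gstk1, the kappa class enzyme of mitochondria and peroxisomes, differed by 0.17 after normalization, with raw intensities of 1063.5 on CON and 1042.8 on DKO. Gstz1, which takes part in tyrosine breakdown as maleylacetoacetate isomerase, differed by -0.41, with 783.9 on CON and 549.5 on DKO.

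The microsomal transferases are membrane enzymes with transferase and peroxidase activity. After normalization their main probes were all higher on DKO, by 0.31 (Mgst1), 0.21 (Mgst2) and 0.03 (Mgst3, whose other probe also gave 0.03). The raw intensity of the main Mgst3 probe was lower on DKO, at 2642.9 on CON and 2393.4 on DKO. Mgst1 was read by 2 probes that gave very different sizes. The main probe read 3431.6 on CON and 3753.9 on DKO, which is 11.61 and 11.92. The other probe read 115.7 on CON, with a detection p-value of 0.955, and 497.1 on DKO, with a detection p-value of 0; its normalized values were 4.27 and 8.70. It was therefore not detected on CON and plainly detected on DKO, with a fitted difference of 4.43, or at least 10.6-fold against the lowest detected value of the normalized CON array. The size depends on the background correction: the difference was 3.07 with a normexp offset of 50, 2.50 in the authors' normalized values and 2.19 with uncorrected background, and the ratio of the raw intensities was 4.30. The direction was the same in each. Of the 62 detected member probes it was the 1 past 2-fold upward, and 0 passed it downward, beside 1.11% and 1.28% of the 11221 detected probes of the array. Both Mgst1 probes are assigned by the array to the same transcript record. The files do not say what part of the transcript each reads, so the difference between them was not traced to a transcript form, and why 1 probe moved and the other hardly did was not tested. Of the 4 genes whose probes disagreed (Gss, Mgst1, Prdx2 and Txnrd2), Mgst1 was the 1 left with uncorrected background. Without Mgst1, the pooled SD between probes of a member gene was 0.31 (10 genes), and with it 0.79 (11 genes).

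**Figure D3:**
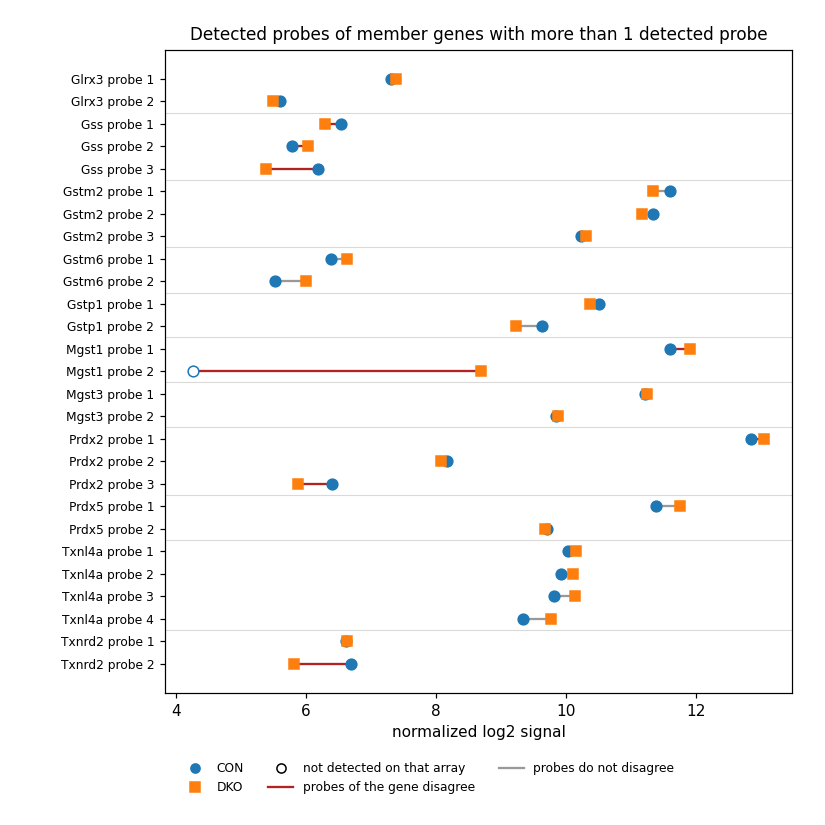
Normalized log2 signal on CON (circles) and DKO (squares) for every detected probe of the 11 member genes with more than 1 detected probe, probe 1 being the main probe; open symbols were not detected on that array. The second Mgst1 probe goes from 4.27 on CON to 8.70 on DKO, and the probes of Gss, Mgst1, Prdx2 and Txnrd2, drawn with red lines, disagree.

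Glutathione peroxidases gave the lowest member. Gpx2, an epithelial enzyme best known from the lining of the gut, had a raw intensity of 1164.5 on CON and 570.5 on DKO. Its normalized value was 9.95 on CON and 8.95 on DKO, a difference of -0.999 that lies just inside 2-fold, and it ranked 120 from the bottom among the 8472 genes. Gpx2 has 1 probe on the array, well above background on both. Gpx1, the general cytosolic peroxidase, went the other way, with 9719.3 on CON and 11372.4 on DKO, normalized values of 13.18 and 13.53 and a difference of 0.35. Gpx4, which reduces lipid hydroperoxides within membranes and is needed for hair follicle formation in mice, differed by -0.06, with 1348.3 on CON and 1155.8 on DKO, and its other probe was not detected. Gpx7, an enzyme of the endoplasmic reticulum, was detected on CON only and differed by -0.40, or at least 1.08-fold as a bound. Of the 4 detected peroxidases, 1 was thus higher and 3 were lower, with Gpx2 alone past 1.5-fold.

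Of the 7 peroxiredoxins 5 were detected, with differences from -0.04 to 0.37 on their main probes. Prdx1 read 7846.3 on CON and 6899.9 on DKO, a difference of -0.04 after normalization. Prdx3, the mitochondrial form, differed by -0.03 and Prdx4, the form of the endoplasmic reticulum, by -0.04. Prdx5 gave 0.37 on its main probe and -0.02 on the other. Prdx2, a cytosolic peroxiredoxin, had 3 detected probes that disagreed: 7928.3 and 8308.8 (difference 0.19), 418.7 and 364.8 (-0.10), and 200.3 and 166.7 (-0.53). The main Prdx2 probe was thus higher on DKO and the 2 dimmer probes lower. No probe of Prdx6, or of the related gene Prdx6b, was detected.

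Among the 21 genes listed as thioredoxins, thioredoxin reductases or thioredoxin-related, 14 were detected, 5 of them higher and 9 lower on DKO, with a median of -0.10. Over all detected genes of the array 47.1% were higher and 52.6% lower, with a median of -0.02. Txn1, the cytosolic thioredoxin, was the single one past 1.5-fold. It read 239.3 on CON and 293.8 on DKO, which is 6.92 and 7.60 after normalization and a difference of 0.68, rank 332 from the top. This value stands on 1 dim probe, and the other 2 Txn1 probes were detected on neither array. Txn2, the mitochondrial thioredoxin, differed by -0.22.

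The reductases did not share a size. Txnrd1, the cytosolic reductase, was barely detected on CON (154.4) and not on DKO (137). Its fitted difference was -0.55, and no bound above 1-fold can be given. Txnrd2, the mitochondrial reductase, had 2 probes that disagreed: the main probe read 215.4 on CON and 205.4 on DKO with a difference of 0.02, and the other read 221 and 164.9 with a difference of -0.87. Txnrd3 differed by -0.36. Txnip, the protein that binds and inhibits thioredoxin, read 2296.1 on CON and 1757.9 on DKO, with normalized values of 11.01 and 10.78 and a difference of -0.23.

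The other thioredoxin-related genes lay within 1.5-fold. Those of the endoplasmic reticulum, where thioredoxin folds serve disulfide exchange, gave -0.27 (Txndc5), -0.20 (Pdia6) and -0.02 (Tmx1). Tmx4, also a membrane protein of that family, gave 0.37 on the probe the rule found, and a brighter probe described below went the other way. Glrx3, a glutaredoxin that handles iron-sulfur clusters, gave 0.08 and -0.11 on its 2 detected probes. All 4 probes of Txnl4a, a thioredoxin-fold protein of the spliceosome rather than a redox enzyme, were higher after normalization, by 0.13 to 0.42. The raw intensities of its probes at 0.13 and 0.19 were slightly lower on DKO (1223.4 and 1185.7, 1148.2 and 1146.2). Its relative Txnl4b gave -0.17. Txndc9 gave -0.03.

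Both inducible enzymes of the list were detected, and they differed in opposite directions. Nqo1, a quinone reductase that is a standard NRF2 target, read 257.2 on CON and 186.2 on DKO. Its normalized value was 7.10 and 6.31, a difference of -0.79 and rank 261 from the bottom among the 8472 genes. That value comes from a dim probe, and it was -0.38 with uncorrected background and -0.43 in the authors' normalized values. The other Nqo1 probe was not detected. Hmox1, heme oxygenase, which is also induced by heme, read 248.1 and 282.7, or 7.01 and 7.51 after normalization, a difference of 0.50 that falls short of the 1.5-fold size.

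The same families hold genes that the array lists under other symbols and that the rule therefore left out. Srxn1, sulfiredoxin, which reactivates overoxidized peroxiredoxins, gave 0.06 and 0.46 on its 2 detected probes. Gpx8 gave -0.03, -0.19 and -0.10 on 3 probes, Gstp3 gave 0.11, Txndc12 gave 0.33 and Txndc15 gave 0.01. The 3 probes of Txndc11, all dim, gave 0.20, 0.55 and 0.66. The last was not detected on CON and read 5.39 on DKO, where the lowest detected value was 5.38. The others read 5.66 and 5.44 on CON. Tmx4 has a further probe under another symbol, with 8.89 on CON and 8.49 on DKO and a difference of -0.40. This is opposite to the 0.37 of the probe the rule found, which was dimmer, at 6.80 on CON and 7.17 on DKO. Tmx4 is counted among the higher members by the probe the rule found, and in the counts over all genes by the brighter one. Gstt4 and Txndc16 were not detected.

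The neighbouring genes of the pathway were read from 6 lists with the members removed, each gene by its main probe. Their counts stand beside the same shares of all detected genes, which are 1.05% and 1.39% past 2-fold upward and downward and 6.09% and 7.37% past 1.5-fold. At any size, 47.1% of all detected genes were higher and 52.6% lower. In glutathione turnover and cysteine supply, 14 of 26 genes were detected, with a median of -0.03; 2 had fitted values past 2-fold downward and none upward, and 1 of the 2 was not detected on DKO. Gnmt, glycine N-methyltransferase, was at 9.01 on CON and 6.91 on DKO, a difference of -2.10, and its other probe, not detected on DKO, gave -1.47. Ahcy, which splits S-adenosylhomocysteine, was not well above background on DKO, with a fitted difference of -1.45 and a bound of at least 1.58-fold lower on the normalized scale. Adh5, which removes S-nitrosoglutathione, differed by -0.56 and Dpep2, a dipeptidase, by 0.48. Both Gnmt and Ahcy act on S-adenosyl compounds of the methionine cycle and not on glutathione itself.

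Of the glutaredoxins and disulfide enzymes 10 of 15 were detected and no main probe passed 1.5-fold; the 4 with the largest differences were Glrx2 (0.51), Pdia4 (0.35), Glrx5 (-0.24) and Pdia3 (0.20). Among superoxide, catalase and oxidase genes, 7 of 16 were detected, with a median of -0.24 and none at least 1.5-fold higher. Xdh, xanthine dehydrogenase, was at 7.85 on CON and 6.53 on DKO, a difference of -1.33. Cat, catalase, which splits hydrogen peroxide in peroxisomes, was at 8.61 and 7.73, a difference of -0.88. Sod1, the cytosolic superoxide dismutase, differed by -0.52 and Cyba, a subunit of NADPH oxidase, by 0.48.

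NRF2 and its regulators gave 10 detected genes of 12 and no main probe past 1.5-fold. Nfe2l2, which encodes NRF2, differed by 0.50, from a dim probe at 5.61 on CON and 6.11 on DKO. The repressors Bach1 and Bach2 differed by -0.54 and -0.50, and the partner Mafg by 0.23. Of 28 other known NRF2 targets 21 were detected, 8 higher and 13 lower, with a median of -0.08; 4 were at least 1.5-fold lower and none that much higher. They were Aldh3a1, an aldehyde dehydrogenase (10.58 on CON, 9.56 on DKO, difference -1.02), Osgin1 (-0.82), the NADPH-forming Idh1 (-0.75) and Tkt of the pentose phosphate pathway (-0.59). The Osgin1 probe was dim, at 6.44 on CON and 5.62 on DKO. Of 18 selenoprotein handling genes 16 were detected, 5 higher and 11 lower. Selenbp1, a selenium-binding protein that is not itself a selenoprotein, was at 8.16 on CON and 6.94 on DKO, a difference of -1.23. Scly, selenocysteine lyase, differed by -0.60 on a dim probe (6.07 on CON, 5.46 on DKO), and Selenbp2, not detected on DKO, by -0.39. Sepsecs, which makes selenocysteine on its transfer RNA, gave -0.75 on the main probe, where it was not detected on DKO, and 1.08 on its other probe, which was detected on DKO only. Over the 6 lists no main probe was past 1.5-fold upward, but other probes were. Besides that of Sepsecs these were a probe of Me1, malic enzyme (not detected on CON, 6.53 on DKO, fitted difference 2.04, main probe -0.54), one of Msrb2, a methionine sulfoxide reductase (0.71, not detected on CON, main probe -0.20), and one of Dpep2 (0.62). The direction read for Me1, Msrb2 and Sepsecs thus depends on the probe.

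**Figure D4:**
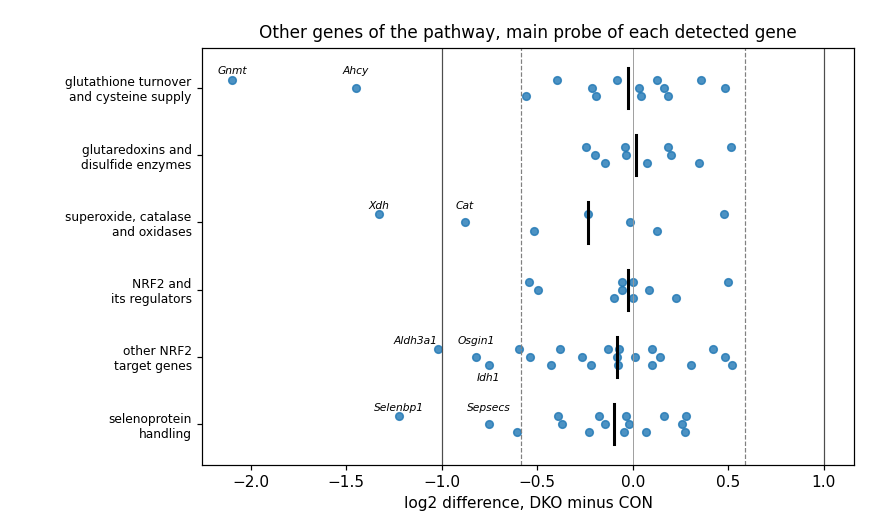
Log2 difference (DKO minus CON) of the main probe of each detected gene in 6 pathway lists, with members of the enzyme families removed; bars mark the median of each list, solid lines 2-fold and dashed lines 1.5-fold. Gnmt (-2.10), Ahcy (-1.45), Xdh (-1.33), Selenbp1 (-1.23) and Aldh3a1 (-1.02) lie past the lower 2-fold line, and none lies past the upper one; Ahcy was not detected on DKO.

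**Figure D5:**
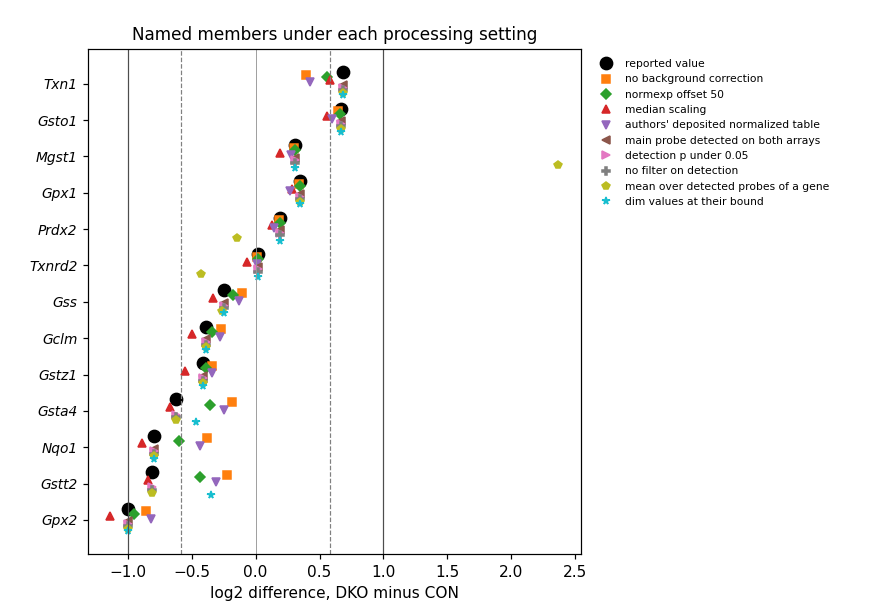
Log2 difference (DKO minus CON) of named member genes under the main processing and each alternative. Gpx2 runs from -1.14 to -0.82, Gsto1 from 0.56 to 0.67 and Txn1 from 0.39 to 0.68, each on 1 side of 0 throughout, while Mgst1 runs from 0.19 to 2.37.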

How the data were processed

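Epidermal RNA of 2 groups was read on 1 Illumina bead array each, with RNA of 3 mice combined per array. The authors' deposited table, per the file headers, holds a mean bead intensity and a detection p-value for each of 25697 probes, not normalized; GenomeStudio 2011.1 is named in the submitters' processing notes. A second deposited table holds the authors' normalized intensity, with no statement of the method in the sources used here; it served as an alternative. Intensities were corrected with normexp on the detection p-values (neqc, offset 16), quantile-normalized and put on the log2 scale with limma 3.58.1 in R 4.3.3. The steps were tested on simulated data. With 1 array per group no test was possible, and precision is limited by this number of arrays. Genes were counted by size (2-fold and 1.5-fold) on the probe with the highest mean log2 value. For members that probe was taken among those the rule found. Counted genes had it under 0.01 in detection p-value on either array. A value not well above background on 1 array gave a bound: the brighter value over that array's lowest detected value (5.28 on CON, 5.38 on DKO, log2) or the probe's own, whichever was higher. Probes of a gene disagreed where their differences spanned at least 1.5-fold. Genes were named from the array's gene IDs and accessions through RefSeq. Values are given in full for members past 1.5-fold, members whose probes disagree and the member with the highest value on CON in each role group, and for up to 4 genes of each other list with the largest differences. Members beyond these are given by their difference, as an account of all members. The members and lists were chosen with earlier results of these data known.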

Additional observations from a re-analysis of the deposited data

How the results depend on the processing

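The median difference of the detected members stayed below 0 under each of the 9 alternatives run, from -0.13 to -0.02. The median of all genes was also below 0 under each, from -0.13 to -0.003. The member median minus that of all genes ran from -0.04 to -0.003. The count of members at least 1.5-fold higher, 2 as reported, was 1 with a normexp offset of 50, 1 with uncorrected background, 1 from the authors' normalized values and 0 under median scaling, and 3 with a mean over each gene's detected probes. Over all detected genes that count was 516 under the reported processing and 251, 124, 125, 370 and 500 in the same order. The count at least 1.5-fold lower, 4 as reported, was 1 with uncorrected background, 1 from the authors' normalized values, and 2 each with an offset of 50, with the main probe detected on both arrays and with dim values at their bound. Over all detected genes it was 624 under the reported processing and 127, 131, 270, 418 and 459 in the same order. So both 1.5-fold counts fell over the whole array too. The count at least 2-fold higher, 0 as reported, was 1 when the detected probes of a gene were averaged (Mgst1, 2.37), and the count at least 2-fold lower was 1 under median scaling (Gpx2, -1.14). Over all detected genes these 2 counts were 86 and 149, beside 89 and 118 as reported. Probes disagreed for 4 genes as reported and for 1 gene both with uncorrected background and from the authors' normalized values; these alternatives for probe disagreement, and the further Tmx4 probe (-0.40), were chosen after seeing the data. Median scaling moved the median of all genes by -0.11. Relative to that median Gpx2 was at -1.01 and Gsto1 at 0.69, beside -0.98 and 0.69 as reported. Median scaling split all genes past 2-fold into 71 higher and 149 lower, beside 89 and 118. It split the members into 16 higher and 30 lower, and all 8472 detected genes into 3015 higher and 5457 lower. By the authors' normalized values, 24 genes in all were past 2-fold upward and 28 downward. Over 19 named members there were 169 alternative values, of which 85 equal the reported one, many because a filter or probe choice leaves it untouched. Of the others, 73 moved by less than the spread between probes of a gene and 11 by more. The signs of Gsta1, Prdx2 and Txnrd2 changed under some alternatives. Under median scaling Gsta1 was at -0.12 and Txnrd2 at -0.07. With a mean over detected probes, which disagreed for both genes, Prdx2 was at -0.14 and Txnrd2 at -0.42. No paired analysis was possible because each group has 1 array and no test was made. Dim probes limit Txn1, Gstt2, Gsta4, Gss, Txnrd2 and Nqo1, whose differences were smaller with uncorrected background. Over all settings Nqo1 ran from -0.88 to -0.38. The cause of the other changes was not tested.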
